A study of Mus musculus with 8 samples.

Results

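The genes described here are the writers and erasers of N6-methyladenosine (m6A) in mouse inguinal white adipose tissue (iWAT). They were taken by symbol from a list of 10 genes, 8 writers (Mettl3, Mettl14, Wtap, Virma, Rbm15, Rbm15b, Zc3h13 and Cbll1) and 2 erasers (Fto and Alkbh5), and all 10 were found among the 17264 genes in the tables. All 10 had reads in each of the 8 libraries and passed the filter on low values in both assays.

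m6A is a methyl mark placed on adenosines of mRNA while the transcript is made. METTL3 carries the catalytic site and METTL14 holds the RNA, while WTAP, VIRMA, ZC3H13, CBLL1 (Hakai) and the RNA-binding proteins RBM15 and RBM15B form the regulatory part of the complex and bring it to its transcripts. FTO and ALKBH5 are dioxygenases that take the methyl group off again, and FTO is also known for the obesity-linked variants in its gene. YTHDF1 is one of the cytoplasmic proteins that bind the mark and is known to promote translation of marked transcripts, so that the comparison asks for the levels of the marking machinery when one of its readers is deleted in adipocytes.

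The mice were males of the C57BL/6 strain, 9 weeks old and exposed to cold. Y1CTL mice carried the floxed Ythdf1 allele on both chromosomes, and Y1cKO mice carried it together with Adipoq-Cre, whose promoter drives the recombinase in adipocytes. RNA-seq measured transcripts and Ribo-seq measured ribosome-protected fragments, with 2 libraries per genotype and assay. Each library came from undissociated iWAT, where adipocytes lie among other cells, and there fewer cells of a type and less RNA per cell cannot be told apart. It is not given whether libraries of a genotype came from separate animals, so that p-values speak only of the spread among the libraries at hand.

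The RNA-seq libraries held 3958284 and 4963613 reads in Y1CTL and 12211351 and 16429015 in Y1cKO, and the Ribo-seq libraries held 7364523 to 11862838. RNA-seq depth thus went with genotype, and its part in the RNA-seq and TE differences below was not tested. Ythdf1 itself had 8.01 and 11.5 RPKM (reads scaled by length and by library total) in the Y1CTL and 7.17 and 7.98 RPKM in the Y1cKO RNA-seq libraries, a log2 fold change of -0.33 with an adjusted p of 0.587 from limma. Without Y1CTL replicate 2 that log2 fold change was -0.08. By Ribo-seq Ythdf1 had 17.3 and 16.0 RPKM in Y1CTL against 12.7 and 15.7 RPKM in Y1cKO (log2 fold change -0.23). Its deletion was thus not clearly seen in either assay of whole tissue. The 8 adipocyte markers were above 0 in every library, and in RNA-seq their median was higher in both Y1cKO libraries, at 648 and 704 RPKM, than in the Y1CTL libraries, at 552 and 313 RPKM. The summed RNA-seq level of 8 beige and brown adipocyte markers was 542 RPKM in Y1cKO replicate 1 and 1523 to 2860 in the others. That of 5 progenitor and fibroblast markers was 663 RPKM in Y1cKO replicate 1 and 154 to 235 RPKM in the others. By Ribo-seq the beige and brown sum was 4080 RPKM in Y1CTL replicate 2 and 7790 to 10360 RPKM in the others. Y1CTL replicate 2 had the highest beige and brown sum in RNA-seq (2860 RPKM). In RNA-seq, Y1CTL replicate 2 alone had many lymphocyte transcripts, with a median of 15.4 RPKM over 14 markers where the other 3 libraries had 0.265 or less, while every Ribo-seq library had 44.7 to 52.9. Likewise Y1cKO RNA-seq replicate 1 alone had many skeletal muscle transcripts, with a median of 22.1 RPKM over 10 markers where the others had 0.0251 or less. The part of these cell types in the values below was not tested, and values without each library are given where they turn a direction.

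The 2 erasers stood at the top of the transcript levels, and the catalytic subunit Mettl3 was among the genes below the median gene. By RNA-seq, per transcript length, the mean over the 4 libraries was 25.8 ± 2.94 RPKM (SD) for Alkbh5, 24.9 ± 4.39 RPKM for Fto and 17.2 ± 2.69 RPKM for Wtap, above 78.3% or more of the 12435 genes tested. Virma (11.6 ± 0.53 RPKM), Rbm15 (11.2 ± 1.57 RPKM) and Zc3h13 (8.05 ± 1.89 RPKM) lay above the median gene at 6.55 RPKM. Rbm15b (4.95 ± 0.97 RPKM), Mettl14 (4.41 ± 1.17 RPKM), Cbll1 (4.01 ± 0.87 RPKM) and Mettl3 (3.96 ± 0.98 RPKM) lay below it. Several neighbours in this order did not differ beyond their spread, since Alkbh5 was above Fto in 3 of the 4 libraries, and Virma above Rbm15 and Cbll1 above Mettl3 in 2 of 4 each. The steps from Fto to Wtap, from Wtap to Virma and from Zc3h13 to Rbm15b held in 4 of 4 libraries with no overlap of their ranges.

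In Ribo-seq the order was another one, with Fto and Wtap far above the rest. Per coding length, Fto had 76.7 ± 2.24 RPKM, Wtap 45.5 ± 1.93 RPKM and Alkbh5 22.8 ± 1.80 RPKM (mean ± SD over 4 libraries), and the ranges of these 3 genes did not overlap each other. Virma (12.9 ± 1.43 RPKM) and Mettl14 (12.8 ± 2.15 RPKM) lay near the median gene at 11.4 RPKM and overlapped. Cbll1, Mettl3, Rbm15 and Zc3h13 followed at 7.73, 6.66, 5.51 and 5.18 RPKM, each overlapping the next. Rbm15b, a paralog of Rbm15, was lowest at 2.36 ± 0.22 RPKM, with no overlap with Zc3h13, and only 17.6% of the genes tested had less. Wtap alone made up 42.4% to 50.5% of the summed writer RPKM in Ribo-seq but 24.3% to 30.4% in RNA-seq. These are shares of length-scaled levels, not of reads. In Y1CTL Ribo-seq replicate 1, Virma with its long coding sequence had 845 reads and Wtap 634.

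**Figure D1:**
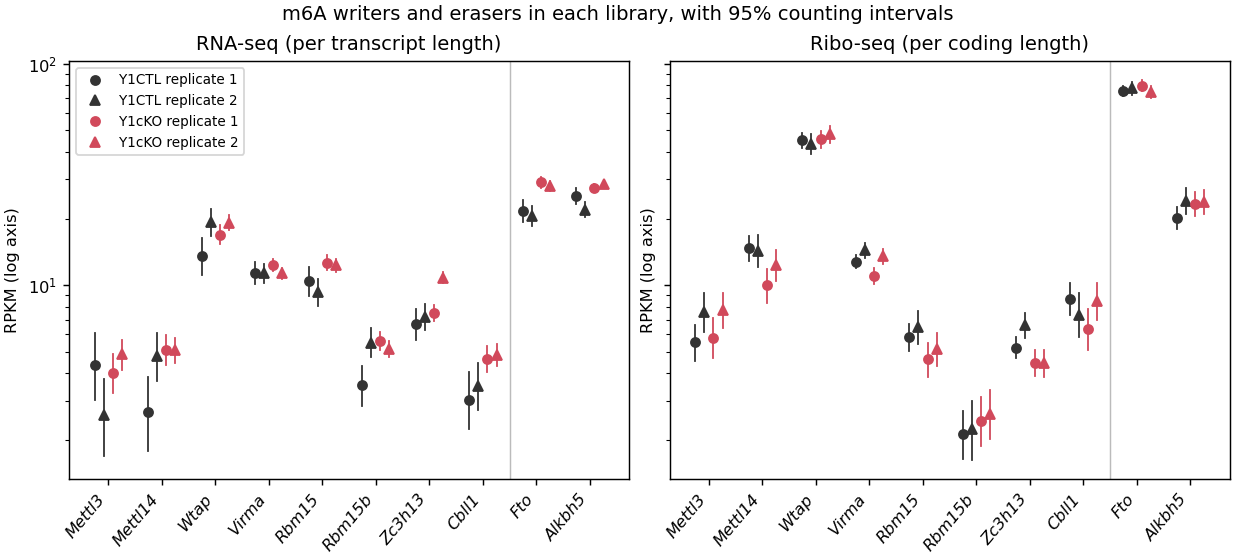
RPKM of the 8 writers (left of the grey line) and 2 erasers in each library on log axes, for RNA-seq per transcript length and Ribo-seq per coding length. Points are single libraries and bars their 95% Poisson intervals, which cover counting error only; Fto at 74.7 to 79.5 RPKM and Wtap at 43.3 to 48.0 RPKM stand above all other genes of the set in Ribo-seq, and Rbm15b at 2.12 to 2.62 RPKM stands lowest.

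Read counts behind the RNA-seq values were lowest in Y1CTL. Mettl3 rested on 35 and 26 reads in the Y1CTL RNA-seq libraries and on 99 and 162 in the Y1cKO libraries. Mettl14 rested on 29 and 65 reads in Y1CTL, and its 2 Y1CTL libraries differed by 0.73 on the log2 scale with a counting error of 0.32. Fto had 306 to 1643 reads and Alkbh5 573 to 2687. Several replicate pairs differed by more than counting error, also at higher counts. Zc3h13 in Y1cKO RNA-seq, with 565 and 1093 reads, differed by 0.50 with a counting error of 0.075. In Y1CTL RNA-seq, Wtap differed by 0.50 with a counting error of 0.17, Rbm15b by 0.58 with one of 0.19 and Alkbh5 by 0.20 with one of 0.083. By Ribo-seq the reads ranged from 44 for Rbm15b to 1343 for Fto.

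By RNA-seq none of the 10 genes passed the test between genotypes, and neither did any of the 12435 genes (0% called at an adjusted p under 0.05 in limma, with 1468 genes at an unadjusted p under 0.05 and 0 called by limma-voom on the reads). Differences are given as log2 fold changes of RPKM plus a pseudocount of 0.5, Y1cKO against Y1CTL. All 10 were higher in Y1cKO, with a median of 0.33, where 67.2% of all genes were higher and the median of all genes was 0.17, and with libraries scaled to the same median Wtap (-0.01) and Virma (-0.10) were lower. Adjusted p-values from limma were 0.416 to 0.898. For 6 of the 10 both Y1cKO libraries lay above both Y1CTL libraries, for 0 of the 10 below, while 36.9% of all genes tested were in the first class and 10.7% in the second. Without Y1CTL replicate 2, the library with lymphocyte transcripts, 10 of 10 were higher with a median of 0.40, and without Y1cKO replicate 1, the library with muscle transcripts, 10 of 10 with a median of 0.35. Without Y1CTL replicate 1 it was 8 of 10, with a median of 0.33.

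Transcripts of the catalytic pair varied within Y1CTL as much as between genotypes. Mettl3 had 4.37 and 2.59 RPKM in the Y1CTL and 4.00 and 4.87 RPKM in the Y1cKO RNA-seq libraries, and the groups overlapped (log2 fold change 0.34 with a standard error of 0.31, and a limma adjusted p of 0.649). Without Y1CTL replicate 2 its log2 fold change was 0.02, and without Y1CTL replicate 1 it was 0.67. Mettl14 had 2.67 and 4.78 RPKM in the Y1CTL and 5.11 and 5.09 RPKM in the Y1cKO libraries. The groups did not overlap, but Y1CTL replicate 2 lay close to both Y1cKO libraries, and the log2 fold change of 0.45 (standard error 0.31, limma adjusted p of 0.560) came to 0.08 when Y1CTL replicate 1 was left out and to 0.82 when replicate 2 was.

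Among the adaptor subunits, Cbll1, which encodes the E3 ubiquitin ligase Hakai, had an RNA-seq difference close to that of Mettl14 and Fto. It had 3.04 and 3.51 RPKM in the Y1CTL and 4.66 and 4.84 RPKM in the Y1cKO libraries, with no overlap (log2 fold change 0.48 with a standard error of 0.23, and a limma adjusted p of 0.467). Zc3h13, known to keep the complex in the nucleus, had 6.66 and 7.18 RPKM against 7.53 and 10.8 RPKM. The groups did not overlap. Y1cKO replicate 2 was well above the other 3 libraries, and without it the log2 fold change of 0.36 was 0.11. Wtap, which ties the catalytic pair to the regulatory subunits, had 13.5 and 19.3 RPKM in the Y1CTL and 16.9 and 19.1 RPKM in the Y1cKO libraries, which overlapped. Virma, the scaffold of the regulatory part, was at 11.3 and 11.3 RPKM against 12.4 and 11.3 RPKM (log2 fold change 0.06, 95% interval -0.38 to 0.51).

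Rbm15, which binds RNA and recruits the complex, had 10.4 and 9.32 RPKM in the Y1CTL and 12.7 and 12.3 RPKM in the Y1cKO RNA-seq libraries. Its groups did not overlap (log2 fold change 0.32 with a standard error of 0.18, and a limma adjusted p of 0.507). Rbm15b had 3.53 and 5.51 RPKM against 5.62 and 5.14 RPKM, which overlapped, and its log2 fold change of 0.26 turned to -0.03 without Y1CTL replicate 1. Wtap turned from 0.15 to -0.10 without that same library.

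Of the erasers, Fto had 21.7 and 20.5 RPKM in the Y1CTL and 29.2 and 28.1 RPKM in the Y1cKO RNA-seq libraries. This was the only one of the 10 genes with an unadjusted p under 0.05 by RNA-seq (0.0445 from limma), and it did not pass the correction (log2 fold change 0.43 with a standard error of 0.17, and an adjusted p of 0.416). Libraries of a genotype lay close together for Fto, and its log2 fold change was above that of 75.2% of the genes tested. Alkbh5 had 25.3 and 21.9 RPKM against 27.5 and 28.5 RPKM, again with no overlap (log2 fold change 0.25 with a standard error of 0.18, and a limma adjusted p of 0.577). Relative to the median gene the differences were 0.26 for Fto and 0.08 for Alkbh5.

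By Ribo-seq none of the 10 passed the test either (0% of 12602 genes called by limma, 347 at an unadjusted p under 0.05, and 0 by limma-voom). Here 5 genes were higher and 5 lower in Y1cKO, with a median of -0.05 beside 0.01 for all genes, and every adjusted p from limma was 1.00. Both Y1cKO libraries lay above both Y1CTL libraries for 2 of the 10, Wtap and Rbm15b, against 15.4% of all genes. They lay below for 3 of the 10, Mettl14, Rbm15 and Zc3h13, against 14.1% of all genes. Without Y1CTL replicate 1 the split was 2 higher and 8 lower, and without Y1cKO replicate 2 it was 4 and 6.

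Footprints on Mettl14 were at 14.7 and 14.3 RPKM in the Y1CTL and 9.99 and 12.3 RPKM in the Y1cKO libraries (log2 fold change -0.37, standard error 0.17). Both Y1cKO libraries were low, replicate 1 more so, and 4.8% of the genes tested had a lower log2 fold change. It ran from -0.51 to -0.23 with single replicates left out. Zc3h13 footprints were at 5.23 and 6.59 RPKM against 4.48 and 4.44 RPKM (log2 fold change -0.36, standard error 0.20, and -0.21 without Y1CTL replicate 2). Rbm15 footprints were at 5.84 and 6.45 RPKM against 4.63 and 5.14 RPKM (log2 fold change -0.30, standard error 0.18). In all 3 genes the transcript levels were ordered the opposite way, with both Y1cKO RNA-seq libraries above both Y1CTL libraries.

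The other writers differed less in Ribo-seq. Mettl3 footprints were at 5.52 and 7.57 RPKM in Y1CTL and at 5.80 and 7.76 RPKM in Y1cKO, so that replicates of a genotype differed more than the genotypes (log2 fold change 0.05, 95% interval -0.51 to 0.61). Wtap was at 45.0 and 43.3 RPKM against 45.7 and 48.0 RPKM (log2 fold change 0.08). Rbm15b was at 2.12 and 2.25 RPKM against 2.45 and 2.62 RPKM, on 44 to 67 reads a library (log2 fold change 0.18). Virma (12.8 and 14.4 against 11.0 and 13.5 RPKM) and Cbll1 (8.70 and 7.37 against 6.35 and 8.49 RPKM) overlapped between genotypes.

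Fto footprints were nearly equal, at 75.2 and 77.5 RPKM in the Y1CTL and 79.5 and 74.7 RPKM in the Y1cKO libraries. The log2 fold change was 0.01 with a 95% interval of -0.30 to 0.33. Alkbh5 footprints were at 20.1 and 24.1 RPKM against 23.2 and 23.7 RPKM, with both Y1cKO libraries between the Y1CTL libraries (log2 fold change 0.09, 95% interval -0.28 to 0.46). When single Ribo-seq libraries were left out, the small log2 fold changes of Mettl3, Cbll1, Fto and Alkbh5 changed sign. Those of Mettl14, Rbm15 and Zc3h13, and the smaller ones of Wtap, Virma and Rbm15b, did not.

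**Figure D2:**
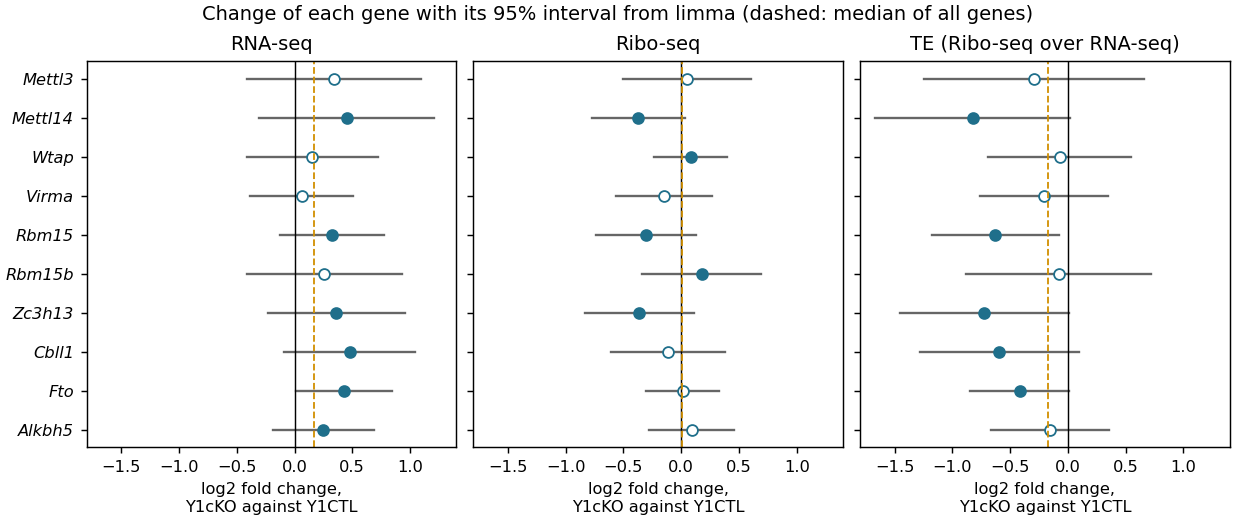
Log2 fold change of each gene, Y1cKO against Y1CTL, with its 95% interval from limma, for RNA-seq, Ribo-seq and translational efficiency (TE). Filled points mark genes whose libraries did not overlap between genotypes, hollow points those that overlapped, and dashed lines the median of all genes (0.17, 0.01 and -0.17); in RNA-seq all 10 points lie above 0 (Wtap and Virma below it once libraries were scaled to the same median) and in TE all 10 lie below 0 (Wtap and Rbm15b above it once scaled).

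Translational efficiency (TE), the log2 of Ribo-seq over RNA-seq level, spread the 10 genes widely. Over both genotypes it was highest for Fto (1.62), Mettl14 (1.46) and Wtap (1.39), which were above the median of 0.94 over 11792 genes. Cbll1 (0.88) and Mettl3 (0.70) lay just under the median, and Virma (0.14) and Alkbh5 (-0.17) lower. Zc3h13 (-0.58), Rbm15b (-0.91) and Rbm15 (-0.96) were lowest, and 12.4%, 8.0% and 7.5% of the genes had a lower TE. The 2 erasers had like transcript levels but unlike footprints, with 3.08 times as much Ribo-seq as RNA-seq signal for Fto and 0.888 times for Alkbh5. The assays are scaled to different lengths and each to its own total, so that a TE of 0 has no absolute meaning and only the order is read. Whether both assays saw the same tissue is in doubt, since lymphocyte markers were high in every Ribo-seq but only 1 RNA-seq library.

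The listed transcripts of these genes differ in build. Rbm15, Rbm15b and Alkbh5 had leaders (the part before the coding sequence) of 593, 461 and 445 nt, longer than those of 88.1% or more of the genes tested for TE, whose median leader was 169 nt. Fto had a leader of 51 nt and Cbll1 one of 81 nt, while Mettl14 and Wtap, next to Fto in TE, had leaders above the median, of 281 and 197 nt. Alkbh5 had the longest trailer (the part after the coding sequence) at 4100 nt and Mettl3 the shortest at 144 nt, with a median of 959 nt over all genes. Virma and Zc3h13 had the longest coding sequences, at 1861 and 1730 codons. For Virma the tables list a leader of 0 nt. With 10 genes these are descriptions, and transcripts other than the listed ones are not seen in such tables.

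TE was lower in Y1cKO for all 10 genes, with a median difference of -0.36 beside -0.17 for all genes, and with libraries scaled to the same median it was higher for Wtap (0.08) and Rbm15b (0.07). Of all genes 34.7% had a higher TE in Y1cKO. None of the 10 passed the test (0% of 11792 genes called by limma for the interaction of assay and genotype, 1021 at an unadjusted p under 0.05, and 0 by limma-voom), with adjusted p-values of 0.563 to 0.940. Taking the 4 combinations of a Ribo-seq with an RNA-seq library in each genotype, every Y1cKO value lay below every Y1CTL value for 5 of the 10 genes, where 20.8% of all genes did so, and above for 0 of the 10, where 5.40% did so. The 5 were Mettl14, Zc3h13, Rbm15, Cbll1 and Fto. This comparison shares its libraries with those of RNA-seq and Ribo-seq and is no further evidence beside them. A replicate left out of TE means its RNA-seq and its Ribo-seq library together, joined by number only. Without Y1CTL replicate 2, TE was lower for 8 of the 10 with a median difference of -0.35. Without Y1CTL replicate 1 it was also lower for 8 of the 10, with a median of -0.41. It was lower for 9 of the 10 without Y1cKO replicate 1 (median -0.32). For 10 of the 10 it was lower without Y1cKO replicate 2 (median -0.41). The part of lymphocyte transcripts in the TE values was not tested.

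Mettl14 is taken first, as the gene with the most negative TE difference, a rank it did not keep without Y1CTL replicate 1 or without Y1cKO replicate 1. Its TE was 1.87 in Y1CTL, from 1.49 to 2.26 over the combinations, and 1.05 in Y1cKO, from 0.90 to 1.20, a difference of -0.82 (standard error 0.36, limma adjusted p of 0.563). Without Y1CTL replicate 1, whose RNA-seq library held 29 Mettl14 reads, the difference was -0.44, and without Y1CTL replicate 2 it was -1.21. For Zc3h13 TE was -0.22 in Y1CTL and -0.94 in Y1cKO, a difference of -0.73 (standard error 0.31), which ran from -0.98 to -0.47 with single replicates left out. Rbm15 was at -0.64 and -1.27, a difference of -0.63 (standard error 0.23), and it alone of the 10 had an unadjusted p under 0.05 (0.0296 from limma), which did not pass the correction (adjusted p = 0.563). Leaving out single replicates moved the Rbm15 difference between -0.77 and -0.49.

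For Cbll1 TE was 1.17 in Y1CTL and 0.58 in Y1cKO (difference -0.59, standard error 0.29, and from -0.80 to -0.39 with single replicates left out). Fto was at 1.83 and 1.41 (difference -0.42, standard error 0.18), with narrow ranges in both genotypes. Its RNA-seq level was higher in Y1cKO while its Ribo-seq level was almost equal. In the remaining 5 genes the combinations overlapped, with differences of -0.29 for Mettl3, -0.21 for Virma, -0.16 for Alkbh5, -0.08 for Rbm15b and -0.07 for Wtap. Relative to the median of all genes, 7 of the 10 differences were lower and those of Wtap, Rbm15b and Alkbh5 higher.

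**Figure D3:**
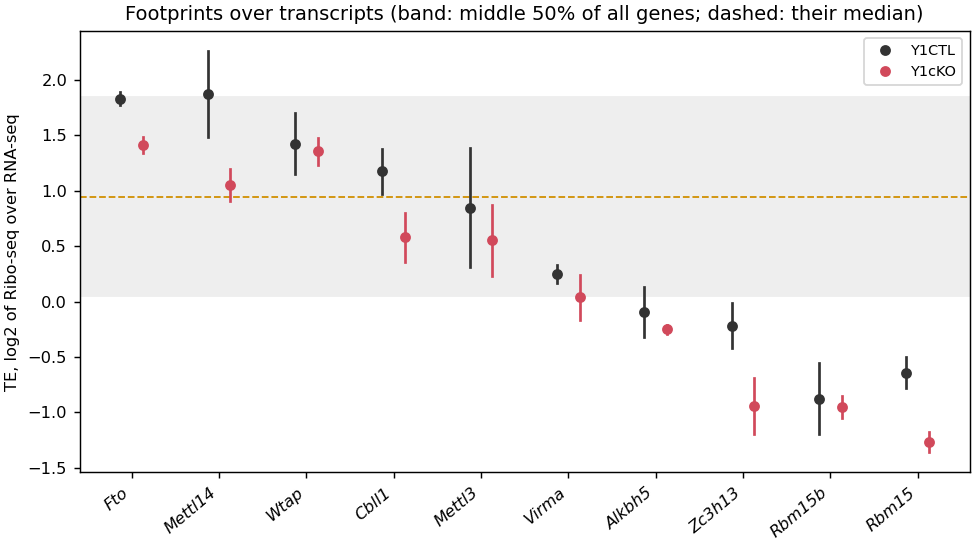
TE of each gene (log2 of Ribo-seq over RNA-seq level) in Y1CTL and Y1cKO, ordered by the mean of both genotypes. Points are genotype means, bars run from the lowest to the highest of the 4 combinations of libraries, the grey band holds the middle 50% of all genes (0.05 to 1.85) and the dashed line their median (0.94). The points of Alkbh5, Zc3h13, Rbm15b and Rbm15 lie under the band in both genotypes, though the Alkbh5 bar in Y1CTL reaches into it (0.13). The Virma point in Y1cKO (0.04) lies just under the band.

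Ratios within a library do not depend on how libraries are scaled. The pairs were chosen as partners with the levels in view, so the ratios are descriptions without a test. How often other gene pairs fail to overlap was not computed, so a lack of overlap carries no weight here. Wtap over Mettl3 and Fto over Mettl3 overlapped between genotypes in both assays. Fto over Mettl14 overlapped in RNA-seq, with both Y1cKO libraries higher in Ribo-seq, and so it was for Virma over Zc3h13. Mettl14 over Mettl3, the catalytic pair, was 2.65 and 1.89 in the Y1CTL and 1.72 and 1.59 in the Y1cKO Ribo-seq libraries. In RNA-seq the same ratio was 0.612 and 1.85 against 1.28 and 1.04, so that the 2 Y1CTL libraries bracketed both Y1cKO libraries. Wtap over Mettl14 was 3.07 and 3.03 against 4.57 and 3.90 in Ribo-seq, with both Y1cKO libraries higher, and 5.05 and 4.03 against 3.31 and 3.76 in RNA-seq, with both lower.

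Rbm15 over its paralog Rbm15b was 2.75 and 2.87 in the Y1CTL and 1.89 and 1.96 in the Y1cKO Ribo-seq libraries. Rbm15b rests on 44 to 67 reads a library here, with a counting error of 0.26 to 0.28 on its log2 replicate difference, so that the closeness of replicates lies within counting error. The RNA-seq ratio overlapped, at 2.95 and 1.69 against 2.25 and 2.39. Fto over Alkbh5 was 0.859 and 0.937 against 1.06 and 0.983 in RNA-seq, with both Y1cKO libraries higher. In Ribo-seq it was 3.73 and 3.22 against 3.42 and 3.15, which overlapped. The sum of both erasers over the sum of the writers was 0.668 to 0.846 in RNA-seq and 0.955 to 1.14 in Ribo-seq, with overlapping genotypes in each assay.

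**Figure D4:**
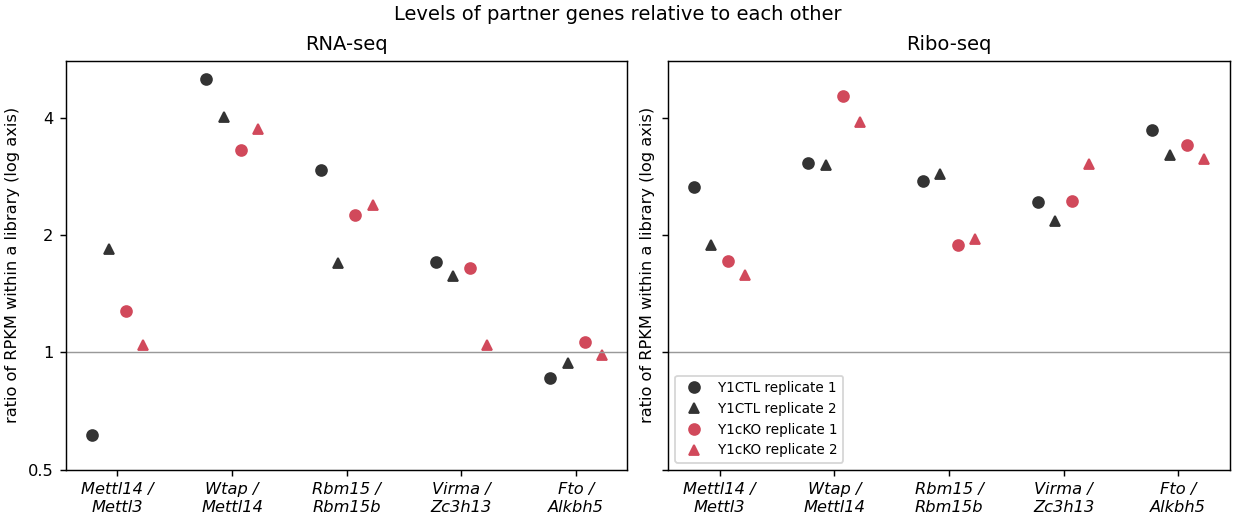
Ratios of RPKM between partner genes within each library on a log axis, for RNA-seq and Ribo-seq, with 1 point per library and a line at equal levels. Wtap over Mettl3, Fto over Mettl3 and Fto over Mettl14 are not drawn. Rbm15 over Rbm15b in Ribo-seq (2.75 and 2.87 in Y1CTL, 1.89 and 1.96 in Y1cKO) does not overlap between genotypes, on 44 to 67 Rbm15b reads a library, and Mettl14 over Mettl3 in RNA-seq (0.612 and 1.85 in Y1CTL) varies most within a genotype.

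Related gene lists held no gene that passed the test in either direction in any comparison. Nor did any gene tested, with 0% of 12435 by RNA-seq, of 12602 by Ribo-seq and of 11792 for TE, so this says nothing particular to the lists. Of 13 m6A readers, the targeted Ythdf1 among them, 11 were tested. By RNA-seq 6 were higher and 5 lower, where 67.2% of all genes were higher. By Ribo-seq 1 was higher and 10 lower (median -0.14), where 51.5% of all genes were higher. For TE 1 was higher and 10 lower (median -0.19), and 5 of 11 were above the median of all genes, -0.17. Ythdf1 counts among the lower readers in RNA-seq and Ribo-seq and is the 1 higher for TE (0.10). Fmr1, which encodes the RNA-binding protein FMRP, had 14.3 and 9.60 RPKM in the Y1CTL and 20.3 and 21.3 RPKM in the Y1cKO RNA-seq libraries (log2 fold change 0.80, limma adjusted p of 0.402). Prrc2a had a TE difference of -0.67 (adjusted p = 0.563 from limma).

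The 6 other m6A and m6Am methyltransferases and cofactors had positive RNA-seq values (6 of 6) with a median log2 fold change of 0.23, 3 of them above and 3 below the median of all genes. Trmt112, the cofactor of several methyltransferases, was at 0.47, and Pcif1, the cap m6Am writer, at 0.29. Mettl16, which methylates U6 RNA and Mat2a transcripts, had a TE difference of -0.64 (limma adjusted p of 0.583). Of the 7 other AlkB homologs, relatives of Fto and Alkbh5, 3 were higher and 4 lower by RNA-seq, with a median of -0.07, and 2 of the 7 were above the median of all genes. Genes for the supply and turnover of S-adenosylmethionine, the methyl donor of the writers, split by RNA-seq into 4 higher and 4 lower of 8 tested, 3 of them above the median of all genes. Mat2a, which makes the donor, had 51.4 and 48.4 RPKM in the Y1CTL and 72.8 and 63.3 RPKM in the Y1cKO RNA-seq libraries (log2 fold change 0.44, limma adjusted p of 0.426). Ahcyl2 had 17.9 and 11.7 RPKM against 37.8 and 29.7 RPKM (log2 fold change 1.18, limma adjusted p of 0.402), and its Ribo-seq values overlapped. For TE the median difference was -0.25 in the other methyltransferases and cofactors and 0.17 in the other AlkB homologs. In the S-adenosylmethionine genes it was -0.03, beside -0.17 for all genes. In that order of lists, 1, 4 and 2 genes were higher for TE and 5, 3 and 5 lower.

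The genes outside the set whose levels over all 8 libraries were most like those of Mettl3 were Adal, Rps6ka5 and Ift81, with a root mean square log2 difference of 0.16 to 0.18. For Fto they were Isoc1, Twf1 and Hnrnpul2, at 0.13 to 0.14. Reads of overlapping genes may be split between them, and the reference annotation (RefSeq, GRCm38.p6) has Mettl3 overlapping Tox4, Rbm15 overlapping Slc16a4 and Rbm15b overlapping Dcaf1, all protein-coding. Strand use in the counting is not given in the sources used here.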

How the data were processed

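RNA-seq and Ribo-seq of iWAT gave 8 libraries, 2 per genotype and assay. Per the labels, lysed tissue was divided between the assays. Same-numbered libraries of the 2 assays did not deviate together, though in Y1cKO this rests on which numbering is followed (below). Lymphocyte markers were high in every Ribo-seq and in 1 RNA-seq library, so that it is in doubt whether TE compares the same tissue. The authors deposited 1 table of RPKM values per library, which rest on transcript length in RNA-seq and on coding length in Ribo-seq. The submitters' processing notes name HISAT2 2.2.1, mm8 and DESeq2, the last with no role. Counter, annotation release and strand setting: not given in the sources used here. No coordinates are printed, since the reference at hand is of another build. Each deposited RPKM value (100%) came out as a whole number of reads, to within 0.01, which gave depth. Genes that a Ribo-seq table leaves out were set to 0.

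Genotypes were compared on log2(RPKM + 0.5) in limma 3.58.1 under R 4.3.3, using an intensity trend and keeping genes whose mean reached 0.5 RPKM. TE was the interaction of assay and genotype. Adjustment was Benjamini-Hochberg across every gene tested. Such log2 fold changes understate the change of low genes. With 2 libraries against 2, exact tests of single values cannot pass 0.05 and were not run. Simulated data were used to check the fits. All 10 genes are named whatever their values, with Ythdf1, up to 3 genes of each related list with the smallest p, and the 3 nearest genes of Mettl3 and Fto. The genes and lists were chosen with earlier results of these data known.

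Same-numbered libraries were not taken as pairs in the main fits. The replicate block linked them by number. For TE, leaving out a replicate dropped its RNA-seq and its Ribo-seq library together. In the Y1cKO RNA-seq tables the value columns are numbered the other way round from the sample labels, which were followed. Across 11792 genes, deviations of same-numbered libraries from their group means correlated at -0.14 (RNA-seq with Ribo-seq, Y1CTL), -0.24 (Y1cKO), -0.02 (RNA-seq between genotypes) and 0.05 (Ribo-seq between genotypes). By the column numbers, the values that involve Y1cKO RNA-seq (-0.24 and -0.02) would have the opposite sign. Leaving out a Y1cKO replicate for TE would then also drop another pair of libraries. Alternatives were other pseudocounts, no filter, equal medians, limma-voom on the reads, a replicate block and each replicate left out. Tables and figures used Python 3.11.15, pandas 2.3.3, numpy 2.4.6, scipy 1.17.1 and matplotlib 3.10.9.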

Additional observations from a re-analysis of the deposited data

How the results depend on the processing

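Under 11 alternatives per comparison the 10 genes gave 330 values, of which 313 kept their direction, 17 reversed and 0 passed the adjusted threshold (limma adjusted p 0.125 to 1.00). With libraries scaled to the same median, RNA-seq reversed to -0.0086 for Wtap and -0.0999 for Virma, and TE to 0.0836 for Wtap and 0.0744 for Rbm15b. That scaling took the median of all genes from 0.17 to 0.01 in RNA-seq. It took the RNA-seq genes with an unadjusted p under 0.05 from 1246 higher and 222 lower to 576 higher and 455 lower. Leaving out 1 replicate at a time, which leaves 1 library assumed to vary like the others, gave 0 to 665 genes called by RNA-seq, 0 to 51 by Ribo-seq and 0 to 963 for TE, the highest each without Y1CTL replicate 1, and none of the 10 among them. Without Y1CTL replicate 2 the counts were 52, 19 and 0. Without Y1CTL replicate 1 the genes tested numbered 12481 by RNA-seq, 12574 by Ribo-seq and 11828 for TE. Most genes tested were not called there either, so the lack of calls among the 10 says nothing particular to the set. With single replicates left out, the RNA-seq log2 fold change ran from -0.096 to 0.403 for Wtap and from -0.0318 to 0.544 for Rbm15b. By Ribo-seq it ran from -0.162 to 0.260 for Mettl3, from -0.313 to 0.0791 for Cbll1, from -0.0319 to 0.0583 for Fto and from -0.0345 to 0.217 for Alkbh5. For TE it ran from -0.834 to 0.245 for Mettl3, from -0.346 to 0.207 for Wtap, from -0.334 to 0.176 for Rbm15b, from -0.382 to 0.0707 for Alkbh5 and from -0.208 to 0.403 for Ythdf1. With the replicate block 0 genes were called in each comparison, and it changed no call. A crossed replicate block, chosen after seeing the data, called 2 genes by RNA-seq, 0 by Ribo-seq and 0 for TE. The cause of these changes was not tested. Depth limits the RNA-seq values of Mettl3 and Mettl14 in Y1CTL most, at 26 to 65 reads.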
